A study of Homo sapiens with 12 samples.

Results

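Transcripts of 10 genes of the Notch pathway were followed in a breast cancer line in which the transcription factor GLI2 had been targeted and which was then exposed to a taxane. The 10 were the receptors NOTCH1, NOTCH2, NOTCH3 and NOTCH4, the ligands JAG1, JAG2, DLL1 and DLL4, and the target genes HES1 and HEY1, taken by symbol from the 25049 genes of the deposited count table. All 10 were in the table and all 10 passed the filter on low counts. Polyadenylated RNA was counted in 12 samples, 3 in each of 4 groups. The groups were GLI2 KO cells given 50 nM paclitaxel, WT cells given 50 nM paclitaxel, GLI2 KO cells given DMSO and WT cells given DMSO. Exposure lasted 2 days. Paclitaxel stabilises microtubules and stops dividing cells in mitosis, and DMSO is its solvent. The cells of every group were MDA-MB-231b, a bone-tropic derivative of the established human triple-negative line MDA-MB-231 that had been recovered from the marrow of nude mice. Knockout was by lentiviral CRISPR-Cas9 with a guide RNA to GLI2, and the design text names a non-targeted guide beside it. The labels call the other genotype WT. The labels do not say whether the knockout cells were a pool or 1 clone, nor which site the guide cut. The labels do not state that the 3 samples of a group are separate cultures, so the tests compare differences with a spread that may be technical.

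Notch receptors are single-pass proteins that are activated by ligands of the Jagged and Delta-like families on a neighbouring cell. Binding exposes the receptor to an ADAM protease and then to gamma-secretase, and the freed intracellular domain moves to the nucleus, where it joins the DNA-binding protein RBPJ and a Mastermind coactivator to switch on genes of the HES and HEY families. In breast cancer that has spread to bone, JAG1 on tumour cells is known for engaging Notch receptors on bone cells. GLI2 acts at the end of the Hedgehog pathway. Receptor activity depends on cleavage, so transcript counts describe the amount of pathway messenger RNA and do not measure signalling.

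Totals per sample lay between 83230948 and 109018776 counts, at which 3 counts equal 0.0272 to 0.0385 CPM (the usual library-scaled count unit, here with TMM factors). GLI2 itself averaged 4.16 CPM in GLI2 KO cells and 5.68 CPM in WT cells under paclitaxel, and 9.20 CPM in GLI2 KO cells and 10.8 CPM in WT cells in DMSO. A count over the whole gene does not test editing at the guide's site, and the transcript was present in all 12 samples. The line's own markers were high in all 12 samples, with VIM (vimentin) between 1735 and 2941 CPM, while CDH5 (VE-cadherin, which defines endothelium) lay between 0 and 0.162 CPM. Of the other endothelial markers, ESAM lay between 11.6 and 26.4 CPM and KDR between 0.0641 and 2.98 CPM. Mitochondrially encoded genes took 4.83% to 5.33% of counts under paclitaxel and 3.99% to 4.69% in DMSO. In these bulk samples fewer cells that express a gene and less of its RNA per cell cannot be told apart. GLI2 KO replicate 3 in DMSO (library 11) held the highest HES1, JAG1 and NOTCH3 and the lowest DLL1 of its group, so results that move without it are also given without libraries 11 and 12, which are GLI2 KO replicate 3 in DMSO and in paclitaxel. That alternative was chosen after seeing the HES1, JAG1, NOTCH3 and DLL1 values, so its adjusted p-values for these genes carry no separate weight. The labels do not pair libraries 11 and 12.

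Paclitaxel was followed by higher levels of the target genes and of 3 of the 4 ligands in both genotypes, while the abundant members NOTCH1, NOTCH2 and JAG1 moved by less than 0.20 on the log2 scale with TMM factors. In WT cells 5 of the 10 members were higher with paclitaxel than with DMSO and 0 were lower at an edgeR adjusted p below 0.05, against 34.6% of all tested genes called higher and 32.1% called lower. In GLI2 KO cells 7 were higher and 1 was lower, against 33.0% and 32.2% of all tested genes. The median log2 fold change of the members was 0.45 in WT cells and 0.57 in GLI2 KO cells, beside 0.03 and 0.02 over all tested genes. With paclitaxel the scaling matters. Upper-quartile factors raised the median of all genes by 0.13 in WT cells and 0.12 in GLI2 KO cells, and library totals raised it by 0.16 and 0.18. The split of higher against lower calls then became 45.1% against 21.5% (upper quartile) and 47.1% against 19.5% (library totals) in WT cells, and 42.4% against 21.8% and 47.3% against 17.4% in GLI2 KO cells.

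The GLI2 KO genotype went with changes in both directions. HEY1 and DLL4 were higher in GLI2 KO than in WT cells in both media, and NOTCH3 and NOTCH2 were lower in both. JAG1 and HES1 were called higher in DMSO, but these calls held in only 12 and 6 of 15 alternatives. In DMSO 4 of the 10 members were higher and 2 were lower in GLI2 KO cells, against 22.0% of all tested genes called higher and 19.6% called lower. With upper-quartile factors or library totals 3 were higher and 2 lower. Under paclitaxel 2 were higher and 3 were lower, against 23.4% and 22.2%. The median log2 fold change of the members was -0.01 in DMSO and -0.06 under paclitaxel, and the same median over all tested genes was 0.01 and -0.01. Each of the 4 groups enters 2 of these comparisons, so the comparisons share samples and are not independent.

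**Figure D1:**
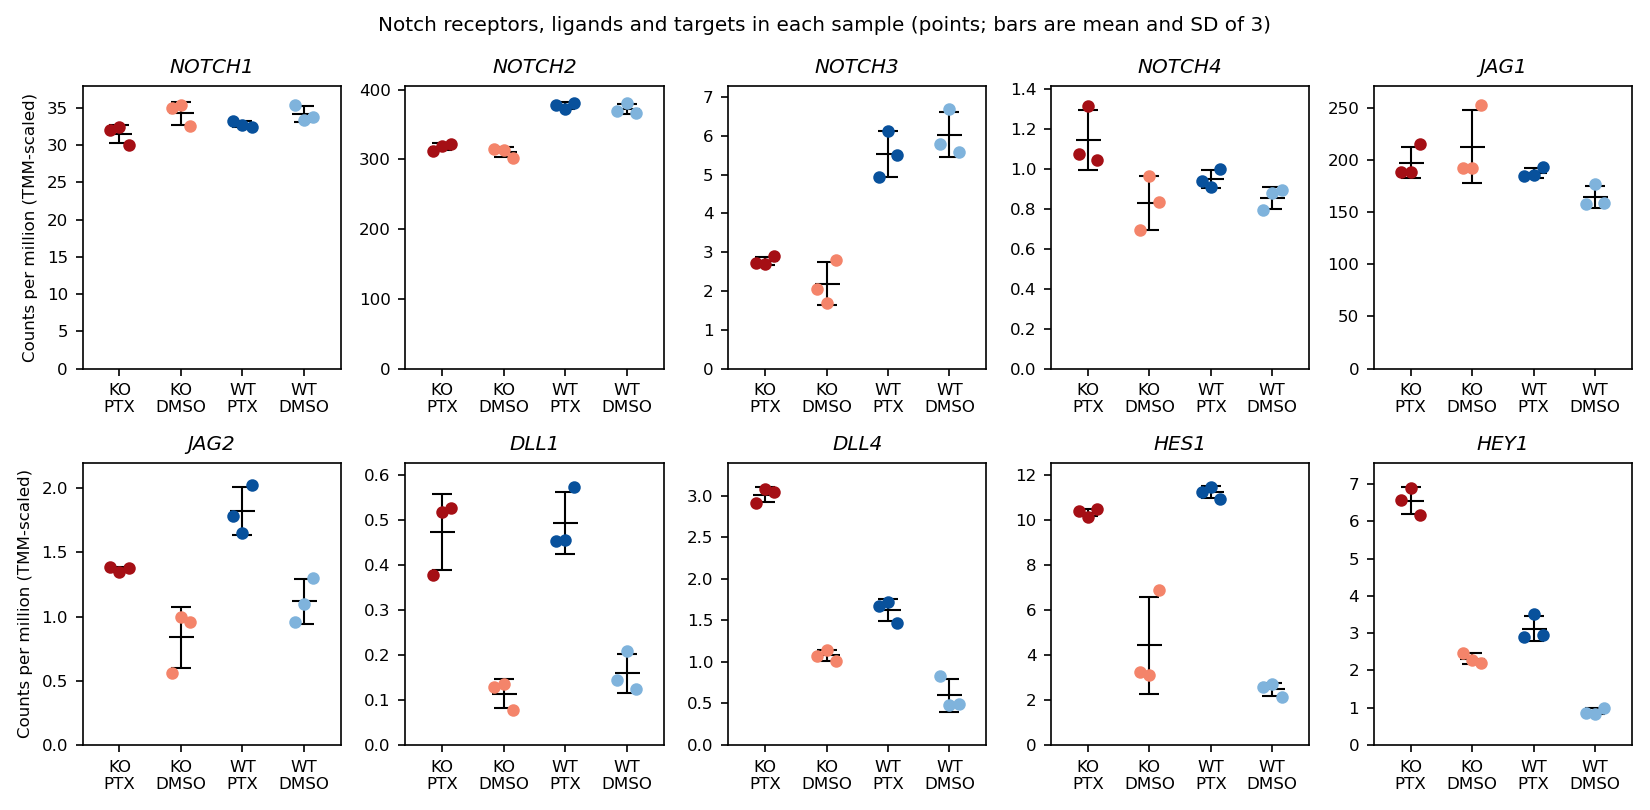
Level of each of the 10 genes in TMM-scaled CPM on a linear axis that starts at 0, with the groups, left to right, GLI2 KO with paclitaxel, GLI2 KO with DMSO, WT with paclitaxel and WT with DMSO. Points are single samples, and black bars are the mean and SD of 3. HEY1 and DLL4 were high in the GLI2 KO paclitaxel samples (6.18 to 6.90 and 2.91 to 3.08 CPM), and NOTCH3 was low in all 6 GLI2 KO samples (1.70 to 2.89 CPM).

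Levels can be compared between genes only per length, so CPM values were divided by the union exon length of each gene in GENCODE 29 (CPM per kb). Measured this way the pathway was dominated by 1 receptor and 1 ligand. NOTCH2 made up 83.5% to 85.6% of the summed receptor level over the 12 samples, and JAG1 made up 95.2% to 98.6% of the summed ligand level. NOTCH1 supplied 11.8% to 15.3% of the receptor level, NOTCH3 0.811% to 2.67% and NOTCH4 0.312% to 0.599%.

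The order of the 10 genes differed between groups in a few places. JAG1 was above NOTCH2 in GLI2 KO cells, with 21.2 ± 1.6 CPM per kb for JAG1 and 18.9 ± 0.30 CPM per kb for NOTCH2 under paclitaxel (SD, n = 3 each), and JAG1 was below NOTCH2 in WT cells, with 20.2 ± 0.50 CPM per kb for JAG1 and 22.4 ± 0.28 CPM per kb for NOTCH2 under paclitaxel. In all 4 groups the ranges of these neighbours in the order did not overlap. The order rests on union exon lengths, 9298 bases for JAG1 and 16807 bases for NOTCH2, which take in the exons of all isoforms. The annotation used for counting is not given, and the ranges do not cover that uncertainty. HES1 stood directly above NOTCH1 in both paclitaxel groups and directly below it in both DMSO groups. HES1 and NOTCH1 overlapped only in the GLI2 KO DMSO group, where HES1 averaged 2.14 ± 1.0 CPM per kb. Other neighbours whose ranges overlapped were DLL1 and NOTCH4 in GLI2 KO paclitaxel samples, DLL4 and JAG2 in both WT groups, and NOTCH3 and DLL4 as well as JAG2 and NOTCH4 in GLI2 KO DMSO samples.

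**Figure D2:**
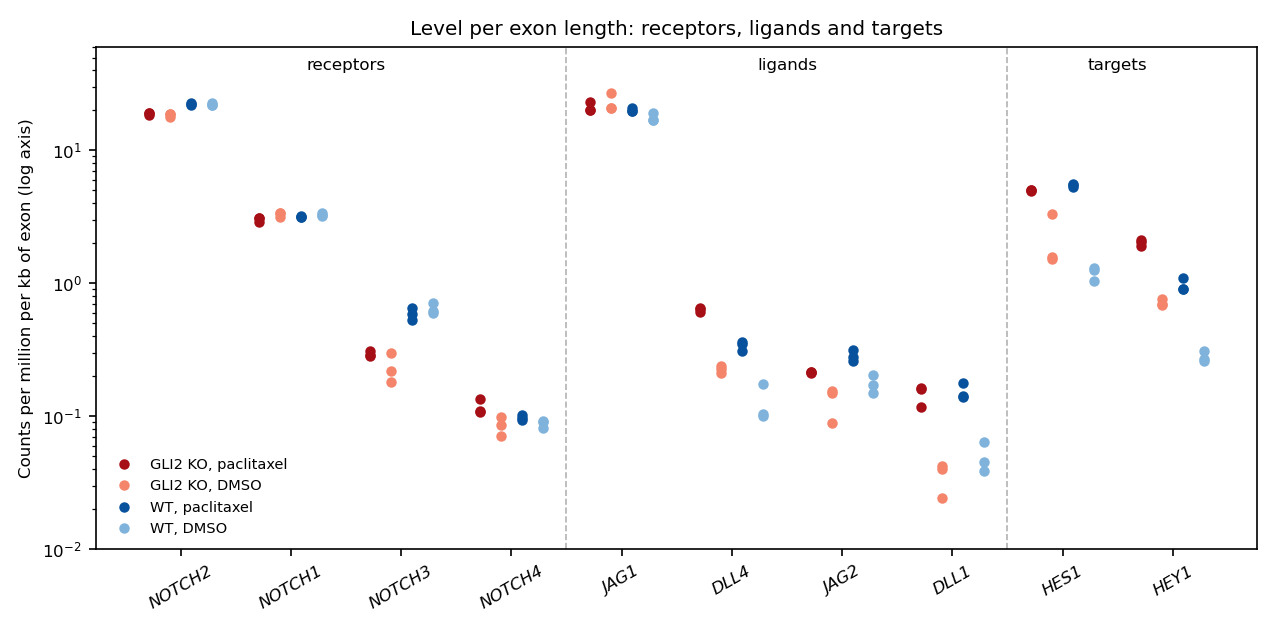
Level in CPM per kb of exon on a log axis for receptors, ligands and targets, 1 point per sample, with GLI2 KO cells in red and WT cells in blue, and paclitaxel in the darker shade. NOTCH2 and JAG1 lie far above their families in every group, HES1 lies above HEY1 in all 12 samples, and DLL1 in DMSO is the lowest set of points, averaging 0.0353 CPM per kb in GLI2 KO cells and 0.0493 in WT cells.

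NOTCH2 (ENSG00000134250, chromosome 1 from 119911553 to 120069626, minus strand, GRCh38) was the most abundant receptor. Under paclitaxel it held 312.5, 318.9 and 322.6 CPM in GLI2 KO cells and 378.6, 372.1 and 381.2 CPM in WT cells. In DMSO NOTCH2 held 315.1, 313.3 and 302.4 CPM in GLI2 KO cells and 369.3, 380.3 and 367.2 CPM in WT cells. All 6 GLI2 KO samples were below all 6 WT samples, while paclitaxel and DMSO samples of a genotype overlapped. The log2 fold change of GLI2 KO over WT was -0.25 ± 0.03 under paclitaxel (adjusted p = 9.11e-08) and -0.26 ± 0.03 in DMSO (adjusted p = 3.13e-08), so NOTCH2 decreased by 15.7% and by 16.7% in GLI2 KO cells. With paclitaxel over DMSO the value was 0.04 ± 0.03 in GLI2 KO cells (adjusted p = 0.282) and 0.02 ± 0.03 in WT cells (adjusted p = 0.564), and these were called higher with upper-quartile factors, library totals or a minimum count of 50. The NOTCH2NL genes are near-identical copies of the amino-terminal part of NOTCH2, and reads may be split between them, so the values of each are uncertain. NOTCH2NLB averaged 3.51 CPM in GLI2 KO cells and 5.88 CPM in WT cells in DMSO (log2 fold change -0.74 ± 0.09, adjusted p = 1.45e-07), and NOTCH2NLA averaged 2.08 CPM in GLI2 KO cells and 3.68 CPM in WT cells (-0.81 ± 0.12, adjusted p = 3.01e-06). NOTCH2NLC did not pass the test in that comparison (-0.10 ± 0.07, adjusted p = 0.321), nor did NOTCH2NLR, at 0.283 CPM in GLI2 KO cells and 0.315 CPM in WT cells.

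NOTCH3 (ENSG00000074181, chromosome 19 from 15159038 to 15200981, minus strand, GRCh38), a receptor best known from vascular smooth muscle, fell furthest of the 10 genes in GLI2 KO cells. Under paclitaxel its level was 2.73, 2.68 and 2.89 CPM in GLI2 KO cells, against 4.94, 6.12 and 5.51 CPM in WT cells. In DMSO NOTCH3 stood at 2.05, 1.70 and 2.79 CPM in GLI2 KO cells, against 5.79, 6.68 and 5.59 CPM in WT cells. The 6 GLI2 KO samples lay below all 6 WT samples, with no overlap. The log2 fold change of GLI2 KO over WT was -0.995 ± 0.12 under paclitaxel (adjusted p = 1.60e-06) and -1.46 ± 0.13 in DMSO (adjusted p = 1.45e-08), which makes it 1.99-fold and 2.75-fold lower. Without libraries 11 and 12 the DMSO value was -1.68 (adjusted p = 1.25e-14). The call held in all 15 alternatives of each comparison. The 50 tested genes nearest to NOTCH3 were taken in gene order along the chromosome, not by distance. In DMSO 3 of them were called higher and 18 lower in GLI2 KO than in WT cells. Their median log2 fold change was -0.07, and over all tested genes 22.0% were called higher and 19.6% lower. The drug's own effect on NOTCH3 was 0.34 ± 0.14 in GLI2 KO cells (adjusted p = 0.0373), where the groups overlapped and the call was lost in 5 of 6 fits that left out 1 sample, and -0.12 ± 0.12 in WT cells (adjusted p = 0.361). Without libraries 11 and 12 the GLI2 KO value was 0.53 (adjusted p = 0.000952).

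NOTCH1 (ENSG00000148400, chromosome 9 from 136494433 to 136545786, minus strand, GRCh38) was the flattest of the 10. Under paclitaxel its level was 32.05, 32.39 and 30.04 CPM in GLI2 KO cells and 33.3, 32.8 and 32.5 CPM in WT cells, and in DMSO it was 35.0, 35.3 and 32.5 CPM in GLI2 KO cells and 35.35, 33.36 and 33.82 CPM in WT cells. Group means differed by less than 3 CPM throughout. Paclitaxel over DMSO gave -0.12 ± 0.04 in GLI2 KO cells (adjusted p = 0.0106, called in 9 of 15 alternatives) and -0.06 ± 0.04 in WT cells (adjusted p = 0.210), and both signs turned positive with library totals (0.05 and 0.10). GLI2 KO over WT missed the threshold in both media, with approximate 95% intervals of -0.14 to 0.02 under paclitaxel and -0.08 to 0.09 in DMSO on the log2 scale. NOTCH4 (ENSG00000204301), a receptor known from endothelium, was near 1 CPM. It averaged 1.14 CPM in GLI2 KO cells and 0.948 CPM in WT cells under paclitaxel, and 0.830 CPM in GLI2 KO cells and 0.855 CPM in WT cells in DMSO. Its only call was paclitaxel over DMSO in GLI2 KO cells, at 0.45 ± 0.16 (adjusted p = 0.0135), lost without GLI2 KO DMSO replicate 1 (adjusted p = 0.0842) or GLI2 KO paclitaxel replicate 2 (adjusted p = 0.0948).

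JAG1 (ENSG00000101384, chromosome 20 from 10637684 to 10673999, minus strand, GRCh38) was the main ligand. Under paclitaxel it held 188.8, 188.7 and 215.1 CPM in GLI2 KO cells and 184.6, 185.4 and 193.1 CPM in WT cells, and in DMSO it held 192.6, 192.5 and 253.0 CPM in GLI2 KO cells and 158.2, 176.6 and 158.5 CPM in WT cells. The WT DMSO samples were the lowest 3 of the 12, and the other 3 groups overlapped. In DMSO the log2 fold change of GLI2 KO over WT was 0.37 ± 0.11 (adjusted p = 0.0253), and without libraries 11 and 12 it was 0.23 (adjusted p = 1.67e-05). The call was lost without WT DMSO replicate 1 (adjusted p = 0.0799) or replicate 3 (adjusted p = 0.0783), and when only the 2 groups compared were fitted (adjusted p = 0.102). GLI2 KO over WT under paclitaxel gave 0.07 ± 0.11 (adjusted p = 0.632). Set against DMSO, paclitaxel gave -0.11 ± 0.11 in GLI2 KO cells (adjusted p = 0.424, or -0.03 with an adjusted p of 0.523 without libraries 11 and 12) and 0.19 ± 0.11 in WT cells (adjusted p = 0.159), where the 3 paclitaxel samples were above the 3 DMSO samples and 4 of 15 alternatives made the call.

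DLL4 (ENSG00000128917, chromosome 15 from 40929333 to 40939073, plus strand, GRCh38) is the Delta-like ligand known from sprouting endothelium. Its level under paclitaxel was 2.91, 3.08 and 3.04 CPM in GLI2 KO cells and 1.67, 1.72 and 1.47 CPM in WT cells. In DMSO DLL4 held 1.08, 1.15 and 1.01 CPM in GLI2 KO cells and 0.831, 0.476 and 0.497 CPM in WT cells. The 4 groups did not overlap, in the order GLI2 KO paclitaxel, WT paclitaxel, GLI2 KO DMSO and WT DMSO from high to low. GLI2 KO over WT gave 0.90 ± 0.13 under paclitaxel (adjusted p = 3.45e-06) and 0.81 ± 0.17 in DMSO (adjusted p = 0.000413), or 1.86-fold and 1.76-fold higher. Paclitaxel over DMSO gave 1.48 ± 0.14 in GLI2 KO cells (adjusted p = 1.40e-09) and 1.40 ± 0.16 in WT cells (adjusted p = 4.37e-08), or 2.80-fold and 2.64-fold higher. Each of these 4 calls held in all 15 alternatives. In per-length terms DLL4 stayed a minor ligand, at 2.86% of the ligand level in GLI2 KO cells and 1.63% in WT cells under paclitaxel, and 0.994% in GLI2 KO cells and 0.707% in WT cells in DMSO.

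JAG2 (ENSG00000184916, chromosome 14 from 105140981 to 105168824, minus strand, GRCh38) and DLL1 (ENSG00000198719, chromosome 6 from 170282206 to 170306565, minus strand) were low ligands that were higher with paclitaxel in both genotypes. JAG2 held 1.38, 1.35 and 1.38 CPM in GLI2 KO cells and 1.78, 1.65 and 2.02 CPM in WT cells under paclitaxel, and 0.564, 0.998 and 0.955 CPM in GLI2 KO cells and 0.956, 1.10 and 1.30 CPM in WT cells in DMSO. Paclitaxel and DMSO samples of a genotype did not overlap. For JAG2 the log2 fold change of paclitaxel over DMSO was 0.69 ± 0.17 in GLI2 KO cells (adjusted p = 0.00099) and 0.71 ± 0.16 in WT cells (adjusted p = 0.000366). JAG2 was also lower in GLI2 KO than in WT cells under paclitaxel (-0.41 ± 0.15, adjusted p = 0.0303), a call lost in 5 of 6 fits that left out 1 sample, and in DMSO the value was -0.40 ± 0.18 (adjusted p = 0.0771), which passed in 4 of 15 alternatives. Among the 50 tested genes nearest to JAG2, 2 were called higher and 34 lower in that paclitaxel comparison, with a median log2 fold change of -0.29, against 23.4% higher and 22.2% lower over all tested genes, and their part in the JAG2 value was not tested.

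DLL1 had the smallest counts of the 10 genes, summing over 3 samples to 140 in GLI2 KO cells and 139 in WT cells under paclitaxel and to 29 in GLI2 KO cells and 43 in WT cells in DMSO. It held 0.377, 0.517 and 0.526 CPM in GLI2 KO cells and 0.452, 0.455 and 0.572 CPM in WT cells under paclitaxel, and 0.128, 0.136 and 0.0778 CPM in GLI2 KO cells and 0.145, 0.208 and 0.124 CPM in WT cells in DMSO. All 6 paclitaxel samples were above all 6 DMSO samples. The log2 fold change was 2.05 ± 0.30 in GLI2 KO cells (adjusted p = 1.69e-06) and 1.64 ± 0.28 in WT cells (adjusted p = 1.30e-05). Without libraries 11 and 12 the GLI2 KO value for DLL1 was 1.75 (adjusted p = 0.00013). Genotypes did not differ detectably at these counts, with approximate 95% intervals for GLI2 KO over WT of -0.52 to 0.41 under paclitaxel and -1.19 to 0.25 in DMSO.

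HES1 (ENSG00000114315, chromosome 3 from 194136145 to 194138732, plus strand, GRCh38) encodes a basic helix-loop-helix repressor and is the textbook target of RBPJ-bound Notch. Under paclitaxel it held 10.4, 10.1 and 10.5 CPM in GLI2 KO cells and 11.2, 11.5 and 10.9 CPM in WT cells. In DMSO HES1 stood at 3.23, 3.13 and 6.90 CPM in GLI2 KO cells and 2.59, 2.69 and 2.13 CPM in WT cells. Every paclitaxel sample was above every DMSO sample, and GLI2 KO DMSO replicate 3 stood apart from the other 5 DMSO samples. Paclitaxel over DMSO gave 1.21 ± 0.25 in GLI2 KO cells (adjusted p = 0.0026) and 2.18 ± 0.27 in WT cells (adjusted p = 9.51e-05), or 2.32-fold and 4.54-fold higher. Without libraries 11 and 12 the value in GLI2 KO cells was 1.69 (adjusted p = 1.02e-17).

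Between genotypes the HES1 result was uncertain in DMSO. GLI2 KO over WT gave 0.85 ± 0.30 (adjusted p = 0.0491), and without libraries 11 and 12 it gave 0.36 (adjusted p = 0.00251). The call was lost in 9 of 15 alternatives, among them RLE factors (adjusted p = 0.0509), limma's voom (adjusted p = 0.0672), the fit of only the 2 groups compared (adjusted p = 0.154) and each fit without 1 WT DMSO sample (adjusted p = 0.0880 to 0.138). Under paclitaxel HES1 was slightly lower in each GLI2 KO sample than in each WT sample, but the log2 fold change of -0.12 ± 0.23 missed the threshold (adjusted p = 0.721). That standard error uses a spread fitted over all 12 samples, GLI2 KO DMSO replicate 3 among them. The paclitaxel groups themselves were tight, at 10.3 ± 0.17 CPM in GLI2 KO cells and 11.2 ± 0.26 CPM in WT cells (SD, n = 3 each). The call was made in 0 of 15 alternatives, with adjusted p between 0.0691 and 0.812. Of the 50 tested genes nearest to HES1, 28 were called higher and 7 lower with paclitaxel in WT cells, with a median log2 fold change of 0.55, against 34.6% higher and 32.1% lower over all tested genes, and their part in the HES1 value was not tested.

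The promoter of HES1 is shown because it carries the letters that RBPJ is known to bind, beside those of DLL4, which was higher in GLI2 KO cells, and NOTCH3, which was lower. Each run covers 250 bases before to 50 bases after the transcription start, from RefSeq on GRCh38.p14, written 5′ to 3′ on the gene's own strand, and matches to TGGGAA are in capitals. The runs lie at chr3:194135898-194136197 on the plus strand for HES1, chr15:40929090-40929389 on the plus strand for DLL4 and chr19:15200946-15201245 on the minus strand for NOTCH3.
HES1: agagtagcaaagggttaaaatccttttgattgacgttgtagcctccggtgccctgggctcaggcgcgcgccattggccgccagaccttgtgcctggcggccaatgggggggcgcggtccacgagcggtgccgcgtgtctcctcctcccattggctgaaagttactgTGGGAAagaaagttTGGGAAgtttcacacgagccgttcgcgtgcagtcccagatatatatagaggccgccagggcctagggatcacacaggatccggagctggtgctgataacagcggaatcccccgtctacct
DLL4: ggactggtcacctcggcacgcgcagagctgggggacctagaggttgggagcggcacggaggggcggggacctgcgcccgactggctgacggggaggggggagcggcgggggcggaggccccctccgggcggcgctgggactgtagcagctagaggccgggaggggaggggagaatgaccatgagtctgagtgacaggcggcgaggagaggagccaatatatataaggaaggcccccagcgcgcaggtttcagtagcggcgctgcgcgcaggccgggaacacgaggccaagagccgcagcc
NOTCH3: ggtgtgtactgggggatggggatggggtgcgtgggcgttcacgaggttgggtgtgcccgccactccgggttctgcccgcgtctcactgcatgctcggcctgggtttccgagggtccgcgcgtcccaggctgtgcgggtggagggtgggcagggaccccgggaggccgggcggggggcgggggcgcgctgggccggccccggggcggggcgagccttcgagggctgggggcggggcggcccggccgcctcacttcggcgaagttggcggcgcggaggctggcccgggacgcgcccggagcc
The HES1 run holds TGGGAA at 2 places, starting 84 and 70 bases before the start, and the copy further upstream is also the longer form GTGGGAA, of which TGGGAA is a part. Both strands were searched. Of 35116 promoters of the same length, 24.0% held TGGGAA at least once, 3.80% held it at 2 or more places, and 6.25% held GTGGGAA. Of the 10 genes 8 had a promoter in the table, and the other 7 of those held neither form. ACCACCC, the core of the motif that GLI proteins are known to bind, was in 4.77% of all promoters and in none of these 8 windows. A match is a description of letters in this window and does not show binding.

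HEY1 (ENSG00000164683), a repressor related to HES1, moved with both the drug and the genotype. Under paclitaxel it held 6.57, 6.90 and 6.18 CPM in GLI2 KO cells and 2.90, 3.52 and 2.94 CPM in WT cells. In DMSO HEY1 held 2.47, 2.27 and 2.21 CPM in GLI2 KO cells and 0.869, 0.843 and 0.994 CPM in WT cells. The 4 groups did not overlap, in the same order as for DLL4. GLI2 KO over WT gave 1.07 ± 0.09 under paclitaxel (adjusted p = 3.57e-10) and 1.358 ± 0.12 in DMSO (adjusted p = 7.90e-10), or 2.10-fold and 2.56-fold higher. Paclitaxel over DMSO gave 1.499 ± 0.09 in GLI2 KO cells (adjusted p = 8.06e-13) and 1.79 ± 0.11 in WT cells (adjusted p = 1.20e-12), or 2.83-fold and 3.45-fold higher. All 4 calls held in all 15 alternatives of each comparison.

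The balance of the target genes was separated by genotype under paclitaxel but not in DMSO, and it was not tested. Per length, HES1 over HEY1 was 2.48 ± 0.18 in GLI2 KO cells and 5.67 ± 0.50 in WT cells under paclitaxel, and 3.03 ± 1.6 in GLI2 KO cells and 4.34 ± 0.86 in WT cells in DMSO (SD, n = 3 each). The DMSO groups overlapped, because GLI2 KO replicate 3 had a ratio of 4.89 and the other GLI2 KO samples 2.05 and 2.16. Because DLL4, HEY1 and NOTCH4 are also endothelial genes, endothelial markers were summed beside them. Of 8 such markers 7 were in the table, and their summed level was 28.6 to 30.8 CPM in GLI2 KO cells and 21.7 to 22.7 CPM in WT cells under paclitaxel, and 24.1 to 27.0 CPM in GLI2 KO cells and 14.6 to 15.4 CPM in WT cells in DMSO. ESAM, an adhesion molecule, made up most of each sum, averaging 25.5 CPM in GLI2 KO cells and 17.0 CPM in WT cells under paclitaxel, and 23.5 CPM in GLI2 KO cells and 12.002 CPM in WT cells in DMSO. The endothelial receptor KDR went the other way, averaging 0.865 CPM in GLI2 KO cells and 2.82 CPM in WT cells under paclitaxel, and 0.104 CPM in GLI2 KO cells and 2.04 CPM in WT cells in DMSO. PECAM1, TIE1, TEK, VWF and CDH5 all averaged more in GLI2 KO than in WT cells in both media, as ESAM did. Under paclitaxel PECAM1 averaged 1.01 CPM in GLI2 KO cells and 0.654 CPM in WT cells, and TIE1 1.14 and 0.816 CPM. In DMSO PECAM1 averaged 0.507 and 0.195 CPM, and TIE1 0.385 and 0.257 CPM. CDH5 was near 0 in all 12 samples. The part of these markers in the values of DLL4 and HEY1 was not tested.

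**Figure D3:**
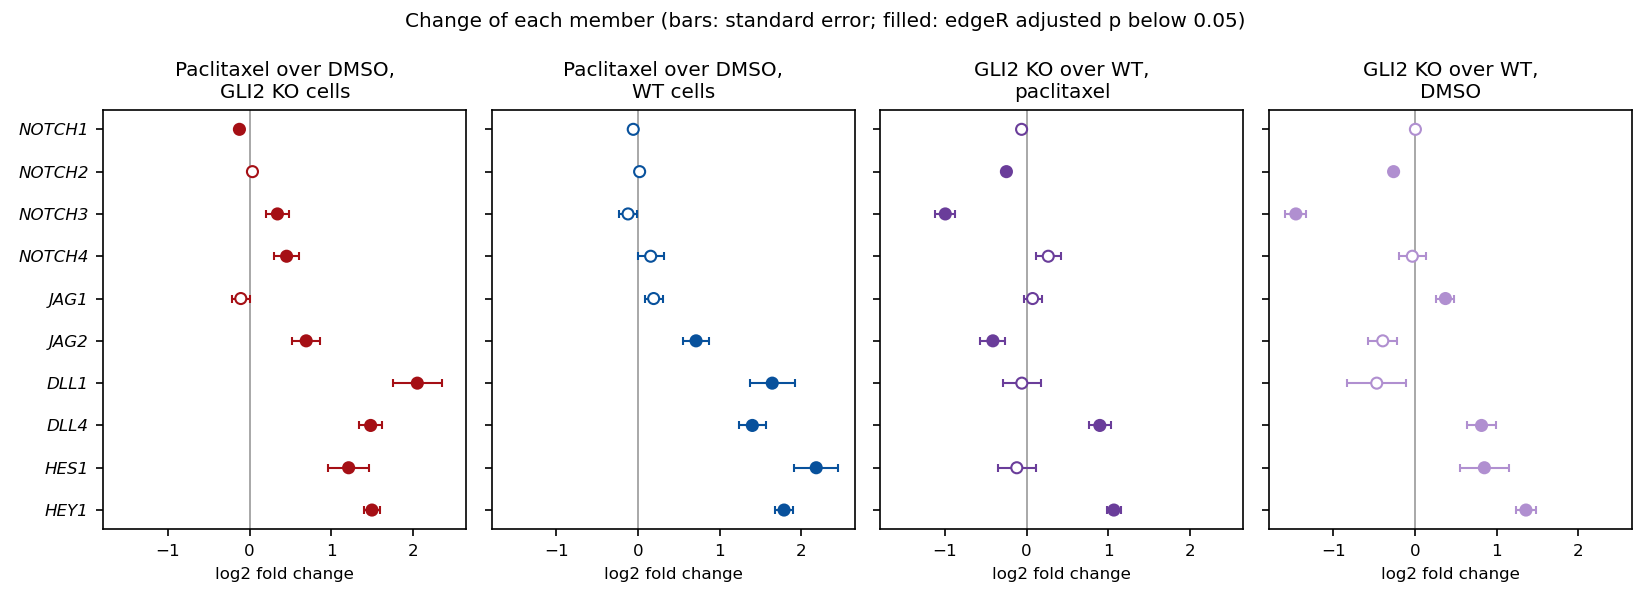
Log2 fold change of each of the 10 genes (points) with its approximate standard error (bars) for paclitaxel over DMSO in GLI2 KO cells and in WT cells, and for GLI2 KO over WT in paclitaxel and in DMSO. Filled points have an edgeR adjusted p below 0.05. The ligands DLL1 and DLL4 and both targets lie to the right of 0 in both paclitaxel panels, NOTCH3 lies at -0.995 and -1.46 in the genotype panels, and HEY1 lies at 1.07 and 1.358.

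Whether the response to paclitaxel itself differed between genotypes was tested with the interaction term, the log2 fold change in GLI2 KO cells minus that in WT cells. None of the 10 members passed, against 6.56% of all tested genes with a positive and 6.93% with a negative called difference. By edgeR 2 members had an unadjusted p below 0.05, and DESeq2 called 1, NOTCH3, at 0.48 (adjusted p = 0.0461). The values nearest to the threshold were those of NOTCH3, at 0.46 ± 0.18 (adjusted p = 0.101), and HES1, at -0.97 ± 0.38 (adjusted p = 0.145). Without libraries 11 and 12 edgeR called 3 members, with NOTCH3 at 0.65 (adjusted p = 0.0035), HES1 at -0.49 (adjusted p = 0.00353) and JAG1 at -0.22 (adjusted p = 0.00481). That choice was made because library 11 held the highest NOTCH3, HES1 and JAG1 of its group, so these calls carry no separate weight. For the strongly moving HEY1 and DLL4 the approximate 95% intervals of the difference were -0.59 to 0.01 and -0.36 to 0.53.

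Other genes of the pathway were read from lists by step, with up to 3 called genes named per list and comparison. Among 9 tested genes of the HES and HEY families and related targets, 3 were higher and 1 was lower in GLI2 KO than in WT cells in DMSO, and 3 were higher and 2 lower under paclitaxel, with median log2 fold changes of 0.18 and 0.07 beside 0.01 and -0.01 over all tested genes. Of all tested genes 22.0% were called higher and 19.6% lower in DMSO, and 23.4% higher and 22.2% lower under paclitaxel. HEY2, the close relative of HEY1, averaged 1.35 CPM in GLI2 KO cells and 0.211 CPM in WT cells under paclitaxel (log2 fold change 2.66 ± 0.23, adjusted p = 5.03e-10), and 0.541 CPM in GLI2 KO cells and 0.0477 CPM in WT cells in DMSO (3.47 ± 0.35, adjusted p = 7.86e-09). HEYL was also higher in GLI2 KO cells, by 0.61 ± 0.12 under paclitaxel (adjusted p = 0.000135) and 0.37 ± 0.12 in DMSO (adjusted p = 0.0184). With paclitaxel 4 of these genes were higher and 4 lower in GLI2 KO cells, against 33.0% and 32.2% of all tested genes. In WT cells 3 were higher and 3 lower, against 34.6% and 32.1%. HES7, an oscillating repressor of somite formation, was higher with the drug (1.39 ± 0.14 in GLI2 KO cells and 1.08 ± 0.14 in WT cells) and HES4 was lower (-0.62 ± 0.14 and -0.69 ± 0.14).

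In the list for receptor sorting and turnover, of which 10 of 11 genes were tested, 3 were higher and 4 lower in GLI2 KO than in WT cells under paclitaxel (median -0.03), and 2 were higher and 5 lower in DMSO (median -0.07). Over all tested genes 23.4% were higher and 22.2% lower under paclitaxel, and 22.0% were higher and 19.6% lower in DMSO. FBXW7, the substrate-binding part of a ubiquitin ligase that marks the Notch intracellular domain and other proteins for destruction, averaged 17.8 CPM in GLI2 KO cells and 39.4 CPM in WT cells under paclitaxel (log2 fold change -1.14 ± 0.04, adjusted p = 2.54e-16), and 16.2 CPM in GLI2 KO cells and 30.5 CPM in WT cells in DMSO (-0.92 ± 0.05, adjusted p = 1.71e-14). DTX4, a Deltex-family ubiquitin ligase, was lower by -1.72 ± 0.15 under paclitaxel and -2.46 ± 0.21 in DMSO. In the 9 cleavage genes, 4 were higher and 1 lower in GLI2 KO cells under paclitaxel (median 0.07). In DMSO 2 of the 9 were higher and 3 lower (median 0.05). These counts moved with the scaling. With upper-quartile factors 2 were higher and 2 lower under paclitaxel, and 1 was higher and 3 were lower in DMSO. APH1B, a gamma-secretase subunit, averaged 9.88 CPM in GLI2 KO cells and 16.5 CPM in WT cells under paclitaxel (-0.74 ± 0.06, adjusted p = 3.44e-10), and 11.5 CPM in GLI2 KO cells and 23.1 CPM in WT cells in DMSO (-1.005 ± 0.06, adjusted p = 6.13e-13). FURIN, the protease that cleaves the receptor precursor, was higher in GLI2 KO cells in both media. Under paclitaxel it averaged 39.2 CPM in GLI2 KO cells and 25.1 CPM in WT cells (0.64 ± 0.05, adjusted p = 1.43e-11). In DMSO FURIN averaged 20.5 CPM in GLI2 KO cells and 15.9 CPM in WT cells (0.36 ± 0.05, adjusted p = 1.05e-06). Its interaction term passed (0.28 ± 0.07, adjusted p = 0.00638). The interaction was called positive for 3 cleavage genes and negative for 0, and for 2 and 1 sorting genes. Over all tested genes 6.56% were positive and 6.93% negative. FBXW7 gave -0.23 ± 0.06 (adjusted p = 0.0202) and APH1B 0.27 ± 0.09 (adjusted p = 0.0420), calls that did not hold in all alternatives.

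Most receptor glycosylation genes were lower with paclitaxel. In GLI2 KO cells 1 of 8 was higher and 7 were lower (median log2 fold change -0.31), against 33.0% and 32.2% of all tested genes. In WT cells 1 of 8 was higher and 6 were lower (median -0.38), against 34.6% and 32.1% of all tested genes. With library totals 4 were lower in each genotype, against 17.4% of all tested genes in GLI2 KO cells and 19.5% in WT cells. The gene that rose was MFNG, a Fringe sugar transferase that shapes ligand choice, at 1.01 CPM with paclitaxel and 0.200 CPM with DMSO in GLI2 KO cells (log2 fold change 2.31 ± 0.25, adjusted p = 1.56e-08), and 1.08 CPM with paclitaxel and 0.2998 CPM with DMSO in WT cells (1.84 ± 0.23, adjusted p = 1.47e-07). Among the 6 ubiquitination genes for ligands, 1 was higher and 4 lower with paclitaxel in each genotype, with a median of -0.17 in GLI2 KO cells and -0.23 in WT cells. The all-gene shares beside these counts are the same 33.0% higher and 32.2% lower in GLI2 KO cells and 34.6% and 32.1% in WT cells. With library totals the ubiquitination counts were 2 higher and 2 lower in GLI2 KO cells and 1 higher and 3 lower in WT cells, and the medians 0.002 and -0.07. NEURL1 rose (2.51 ± 0.18 in GLI2 KO cells, adjusted p = 1.09e-11, and 2.02 ± 0.17 in WT cells, adjusted p = 2.61e-10) and its relative NEURL1B fell (-1.16 ± 0.08 and -1.18 ± 0.07). DNER, a non-canonical ligand, was higher with paclitaxel by 2.02 ± 0.14 in GLI2 KO cells (adjusted p = 4.00e-12) and 2.53 ± 0.15 in WT cells (adjusted p = 2.10e-13).

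Of 9 genes of the nuclear activation complex, 3 were higher and 3 lower with paclitaxel in GLI2 KO cells (median -0.10), against 33.0% and 32.2% of all tested genes, and 2 were higher and 3 lower in WT cells (median -0.03), against 34.6% and 32.1%. With library totals the counts were 4 higher and 1 lower in GLI2 KO cells and 5 higher and 2 lower in WT cells. RBPJ averaged 210 CPM with paclitaxel and 262 CPM with DMSO in GLI2 KO cells (log2 fold change -0.32 ± 0.03, adjusted p = 1.37e-10), and 207 CPM with paclitaxel and 277 CPM with DMSO in WT cells (-0.42 ± 0.03, adjusted p = 1.15e-12). The acetyltransferases EP300 and CREBBP were higher, EP300 by 0.42 ± 0.03 in GLI2 KO cells and 0.53 ± 0.03 in WT cells, and CREBBP by 0.42 ± 0.03 and 0.40 ± 0.03. Between genotypes the Mastermind coactivator MAML2 was higher in GLI2 KO cells, at 33.0 CPM against 22.0 CPM in WT cells under paclitaxel (0.58 ± 0.05, adjusted p = 1.79e-10). Of 13 tested corepressor genes, 7 were higher and 3 lower in GLI2 KO than in WT cells under paclitaxel (median 0.10), against 23.4% and 22.2% of all tested genes. In DMSO 6 were higher and 3 lower (median 0.12), against 22.0% and 19.6%. With upper-quartile factors 5 were higher and 3 lower in each medium. With library totals the counts were 7 and 3 under paclitaxel and 5 and 3 in DMSO. CTBP1 was higher (0.43 ± 0.03 under paclitaxel and 0.44 ± 0.03 in DMSO) and CIR1 lower (-0.45 ± 0.05 and -0.65 ± 0.05).

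**Figure D4:**
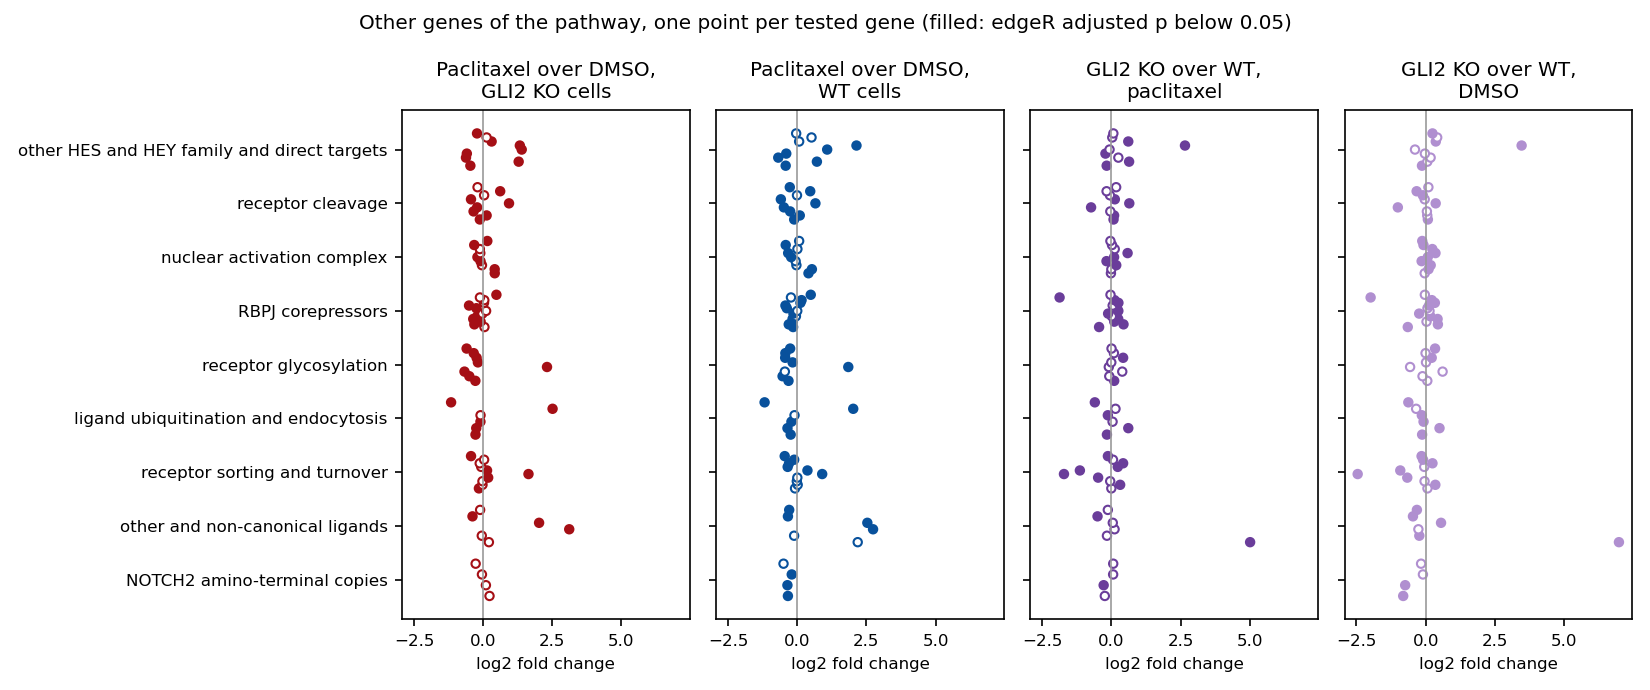
Log2 fold change of the other tested genes of the pathway by list, 1 point per gene, for paclitaxel over DMSO in GLI2 KO cells and in WT cells and for GLI2 KO over WT in paclitaxel and in DMSO. Filled points have an edgeR adjusted p below 0.05. Most points lie within 1 of 0, while MFNG and NEURL1 lie at 2.31 and 2.51 in the GLI2 KO paclitaxel panel and DTX4 at -2.46 in the DMSO genotype panel. The point furthest right in both paclitaxel panels is DLL3, at 3.11 in GLI2 KO cells and 2.74 in WT cells, though it averaged 0.245 CPM with paclitaxel and 0.0277 CPM with DMSO in GLI2 KO cells. In both genotype panels CNTN1 lies furthest right. Both are named because they stand out, CNTN1 at 0.633 CPM in GLI2 KO cells and 0.00376 CPM in WT cells in DMSO.

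The genes whose pattern over the 12 samples was most like that of a member were taken as the 2 with the smallest root mean square difference of centred log2 CPM among 10769 named genes that averaged 5 CPM or more. AREG (amphiregulin, a ligand of the EGF receptor) was nearest to HEY1, with a difference of 0.16 against HEY1's own spread of 1.02, and was also nearest to DLL4, with 0.24 against 0.88. INHBA, which encodes an activin subunit, came next for HEY1 at 0.18. Nearest to NOTCH3 were MX1, an interferon-induced GTPase, at 0.15 and ITGB4, an integrin subunit, at 0.18, against NOTCH3's own spread of 0.66. TENT5C and SHISA2 were nearest to HES1, at 0.25 and 0.27 against its own spread of 0.96. The nearest genes to NOTCH2 and JAG1 were PARD3 at 0.03 and TMEM165 at 0.06, against spreads of 0.13 and 0.17. These are descriptions over 12 samples that share groups, and they carry no test.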

How the data were processed

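Per the labels, polyadenylated RNA was extracted with QIAzol and made into cDNA with qScript supermix. The submitters' processing notes list the hg38 build, STAR, Trim Galore 0.6.7 and DESeq2 1.36.0. The sources used here do not give the counting tool, its annotation or its strand setting. The authors deposited whole, unnormalised counts for 25049 genes. Their deposited normalized signal is those counts divided by 1 factor per sample (largest relative deviation 5.33e-15) and was not tested. Groups came from titles without replicate numbers, so replicates were numbered in accession order and never paired.

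edgeR 4.0.16's quasi-likelihood F test (TMM factors, filterByExpr with a minimum count of 10, robust, R 4.3.3) kept 21974 genes (87.7%). All 12 samples were fitted with 4 group means, leaving 8 residual degrees of freedom, and p-values of each of 5 contrasts were adjusted over all tested genes by Benjamini-Hochberg, with a call below 0.05. The script was tested on simulated data. Standard errors of log2 values are approximate, dividing the absolute value by the square root of F. With 3 against 3 an exact permutation p cannot go below 0.1. Lengths and positions are from GENCODE 29, which matched 23400 genes (93.4%). The 50 nearest tested genes were those around a gene in order along its chromosome, whatever their distance. Likeness used a pseudocount of 0.01 CPM. Floors cover counting error only, and at 83230948 to 109018776 counts per sample depth limits DLL1 most.

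Members, lists and rules were chosen with earlier results of these data known. Members, NOTCH2NL genes and GLI2 are always named. Of each other list up to 3 genes per comparison are, by largest called change at a mean of at least 1 CPM in a group. The alternatives comprised RLE factors, upper-quartile factors, library totals, no filter, a minimum count of 50, DESeq2 1.42.0, limma 3.58.1's voom, the 2 compared groups alone, each sample left out and, chosen after seeing the data, libraries 11 and 12 left out.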

Additional observations from a re-analysis of the deposited data

How the results depend on the processing

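Single-gene results of the 10 members kept their direction and side of the threshold in 713 comparisons with an alternative, gained a call in 21, lost it in 29 and changed sign in 31. In 2 of the 31 a call was involved, NOTCH1 with paclitaxel under library totals, at 0.0978 in WT cells (adjusted p = 0.0307) and 0.0534 in GLI2 KO cells (adjusted p = 0.240). The other 29 were called in neither fit. With upper-quartile factors they were 0.0745 for NOTCH1 and 0.0104 for NOTCH3 (paclitaxel in WT cells), 0.0148 for JAG1 (paclitaxel in GLI2 KO cells) and -0.0194 for NOTCH1 (GLI2 KO in DMSO). With library totals they were 0.0339 for NOTCH3, 0.0692 for JAG1 and -0.0227 for NOTCH1 in the same comparisons, and 0.00477 for the JAG2 interaction. A minimum count of 50 gave 0.00958 for NOTCH1 (paclitaxel in WT cells), RLE factors -0.00247 and DESeq2 -0.00259 for NOTCH1 (GLI2 KO in DMSO), and voom 0.00472 for the JAG2 interaction. Without libraries 11 and 12 the interaction was -0.0127 for NOTCH2 and 0.0748 for JAG2. Leaving out 1 sample gave -0.178 to 0.0306 for JAG1 (paclitaxel in GLI2 KO cells), -0.0129 to 0.0435 for NOTCH1 and -0.149 to 0.0797 for NOTCH4 (GLI2 KO in DMSO), -0.142 to 0.0785 for DLL1 (GLI2 KO under paclitaxel), and interactions of -0.00392 to 0.0256 for NOTCH2, -0.226 to 0.118 for JAG2 and -0.247 to 0.217 for DLL4. Library totals also called 8 members with paclitaxel in WT cells, against 5 with TMM factors. For the interaction DESeq2 called 1 member and edgeR without libraries 11 and 12 called 3, against 0 with all samples. Libraries 11 and 12 were left out after seeing the values of those 3 genes. Leaving out each sample in turn gave 5 to 5 called members for paclitaxel in WT cells, 6 to 8 for paclitaxel in GLI2 KO cells, 4 to 7 for GLI2 KO in DMSO, 4 to 5 for GLI2 KO under paclitaxel and 0 to 2 for the interaction, where the 2 came without GLI2 KO DMSO replicate 3. The causes were not tested. No paired analysis was possible because the titles carry library numbers but no replicate numbers, and the labels do not say that neighbouring library numbers are pairs. Depth limits DLL1 most, at 29 counts over the 3 GLI2 KO DMSO samples and 43 over the 3 WT DMSO samples.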

Other observations

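Markers of other cell types were summed, and their part in the Notch values was not tested. The counts are of human genes, so these sums are not a measure of mouse cells. Of 7 haematopoietic markers 4 were in the table, with a summed level of 1.57 to 1.90 CPM in GLI2 KO cells and 1.21 to 1.62 CPM in WT cells under paclitaxel, and 0.679 to 0.944 CPM in GLI2 KO cells and 0.327 to 0.415 CPM in WT cells in DMSO. Of 8 stromal fibroblast and osteoblast markers 6 were in the table, with a summed level of 77.9 to 80.9 CPM in GLI2 KO cells and 70.6 to 72.3 CPM in WT cells under paclitaxel, and 57.3 to 60.7 CPM in GLI2 KO cells and 58.4 to 63.1 CPM in WT cells in DMSO. RUNX2 made up most of each stromal sum, at 40.6 to 54.4 CPM over the 12 samples. Of 5 luminal markers 4 were in the table, summing to 31.3 to 32.7 CPM in GLI2 KO cells and 31.4 to 33.9 CPM in WT cells under paclitaxel, and 36.4 to 41.2 CPM in GLI2 KO cells and 32.4 to 33.2 CPM in WT cells in DMSO. PGR, GATA3 and KRT19 averaged more in GLI2 KO than in WT cells in both media, and FOXA1 less. PGR averaged 0.836 CPM in GLI2 KO cells and 0.00706 CPM in WT cells under paclitaxel, and 2.48 and 0.00376 CPM in DMSO.

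The copies of the NOTCH2 amino-terminal part were also read in the interaction term, where paclitaxel over DMSO in GLI2 KO cells is set against the same in WT cells. NOTCH2NLA gave 0.57 ± 0.17 (adjusted p = 0.0227) and NOTCH2NLB 0.46 ± 0.12 (adjusted p = 0.0159), and NOTCH2 gave 0.02 ± 0.04 (adjusted p = 0.848). Over the alternatives the adjusted p rose to 0.0714 for NOTCH2NLA and 0.0586 for NOTCH2NLB, so neither call held in all of them. With paclitaxel in WT cells NOTCH2NLA fell (-0.34 ± 0.11, adjusted p = 0.00971), as did NOTCH2NLB (-0.36 ± 0.08, adjusted p = 0.000674). In GLI2 KO cells neither was called (adjusted p = 0.101 and 0.354). Reads may be split between these copies, so the single values are uncertain.

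The genes around 2 of the ligands were read in the comparison of GLI2 KO with WT cells in DMSO. Around JAG1, which was higher in GLI2 KO cells in DMSO, 6 of the 50 nearest tested genes were called higher and 24 lower, with a median log2 fold change of -0.27. Around DLL4 4 were called higher and 9 lower, with a median of 0.0036. Over all tested genes 22.0% were called higher and 19.6% lower in that comparison.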
